A study of Homo sapiens with 647 samples.

Results

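The genes described here are 50 genes of ribosome biogenesis and RNA polymerase I, taken by a list of names from the 54592 genes of the count table. They fall into 5 roles: 7 genes of RNA polymerase I and its initiation factors, 9 proteins of small nucleolar ribonucleoproteins (snoRNPs), 4 abundant nucleolar proteins, 16 factors of small subunit assembly and 14 of large subunit assembly. They were followed in T47D, an established luminal breast cancer cell line that expresses the estrogen receptor. Lentivirus in the pLX307 plasmid introduced FGFR1, FGFR2 as wild type or as the mutants M538I, N550K and K660N, or the ligand FGF3. GFP-infected and uninfected parental cells were the control lines, which made 8 lines in all. The labels do not say whether a line is a clone or a pool, so an effect of a line is an effect of that culture. Cells were plated for 48 h in 96-well plates, treated for 24 h, and sequenced as SMART-Seq2 libraries, 647 in all. DMSO was the vehicle. The agents were fulvestrant (Fulv, 100 nM), which degrades the estrogen receptor, palbociclib (Palbo, 1 µM), an inhibitor of CDK4 and CDK6, FIIN-3 (100 nM), an irreversible FGFR inhibitor, trametinib (Tram, 500 nM), a MEK inhibitor, and the ligand FGF2 at a dose the labels do not give.

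The numbers in the library titles run through the series in 2 sets, which were never tested against each other. Set 1 holds 64 groups of line and treatment: DMSO, FGF2, FIIN-3+FGF2, Fulv, Fulv+FGF2, and Fulv+FGF2 with FIIN-3, Tram or Palbo. The FGF3 line got no FGF2 and had DMSO, Fulv, FIIN-3, and Fulv with FIIN-3, Tram or Palbo, and the N550K line also had FIIN-3 and Fulv+FIIN-3. Set 2 holds 48 groups: FIIN-3, Palbo, Palbo+FGF2, Palbo+FGF2+FIIN-3, Fulv+Palbo+FGF2 with FIIN-3 or Tram, and, for the FGF3 line, a group whose treatment label is "control", Palbo+FIIN-3, and Fulv+Palbo with FIIN-3 or Tram. The parental and GFP lines are called the control lines below, and the 4 FGFR2-expressing lines the FGFR2 lines. Most groups hold 6 libraries, and the labels do not say whether these were separate cultures, so p-values measure the spread between libraries, which may be technical.

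Ribosomes are built in the nucleolus. RNA polymerase I transcribes the ribosomal RNA precursor with the help of RRN3, UBTF and the selectivity factor that includes TAF1D. SnoRNPs then guide its chemical modification: fibrillarin (FBL) with NOP56 and NOP58 methylates riboses, and dyskerin (DKC1) with NHP2, GAR1 and NOP10 makes pseudouridine. NOLC1 assists snoRNP assembly and RRP9 belongs to the U3 particle. NCL, NPM1, GNL3 and DDX21 are abundant in the nucleolus. Assembly factors cleave and fold the precursor into the small and large subunits. Those of the small subunit here were UTP20, WDR43, WDR75, HEATR1, NAT10, EMG1, IMP3, IMP4, NOP14, DDX10, DDX47, RRP12, BYSL, LTV1, TSR1 and PNO1, and those of the large subunit NOP2, NOP16, BOP1, PES1, WDR12, RRP1, RRP1B, RRS1, DDX18, MRTO4, NIP7, PPAN, GRWD1 and NOC2L. The polymerase genes were POLR1A, POLR1B, POLR1C and POLR1E. Growth factor signalling through ERK and the transcription factor MYC are textbook activators of these genes in growing cells.

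Library depth ranged from 512961 to 13012180 counts in set 1 (median 7570053) and from 619509 to 4804935 in set 2 (median 2887186). In 16 libraries, among them 8 of the 45 at DMSO, the mitochondrial ribosomal RNA MT-RNR2 took under 5% of counts. These libraries stand apart, and comparisons that hold them were also counted without them. The introduced genes matched the line labels: at DMSO, FGFR1 had a median of 388 CPM (counts scaled to library size) in the FGFR1 line against 7.02 in GFP cells. FGFR2 was at 26.4 CPM or more in every library of the 4 FGFR2 lines against at most 21.7 in GFP cells, and FGF3 at 84.5 or more in the FGF3 line against at most 1.37. The luminal keratin KRT8 was high in every line (medians of 7640 to 12000 CPM). Of 15 markers of fibroblasts, blood, endothelium and basal epithelium, 9 had a median count of 0. Among them were the blood marker PTPRC, the endothelial PECAM1 and the basal KRT14. The summed level of all 15 at DMSO had a median of 21.9 CPM in the control lines (17.2 to 30.6) and 75.5 in the FGF3 line (38.3 to 86.8), and its part in the results was not tested.

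In untreated cells, levels per transcript length differed widely between the genes. On the scale of the authors' deposited log2(TPM + 1) values, the parental line at DMSO (n = 6) had NPM1, the chaperone of nucleolar assembly, at 9.56 ± 0.18 (SD), and the pseudouridylation protein NOP10 at 9.29 ± 0.37. These were followed by NHP2 at 7.87 ± 0.32, nucleolin (NCL) at 7.41 ± 0.12 and the small subunit factor IMP3 at 7.39 ± 0.21. NPM1 and NOP10 did not differ beyond their spread, nor did NCL and IMP3. The catalytic subunit POLR1A stood near the bottom at 2.15 ± 0.13, with NOP14 at 2.12 ± 0.28, UTP20 at 2.05 ± 0.31 and HEATR1 at 1.93 ± 0.19, all of them large scaffold proteins of the small subunit precursor apart from POLR1A. The large subunit factor PPAN was at 1.63 ± 0.69 with a median of 13 reads per library. PPAN is also part of a read-through transcript with its neighbour, and NPM1 has processed pseudogene copies, so how reads were shared between them is uncertain. The helicase DDX47 had no more than 2 reads in any library and reads in only 10 of 647, so 49 of the 50 genes were tested. SMART-Seq2 does not mark strand, so reads of an overlapping antisense gene cannot be told apart from those of a member.

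Promoter sequence was at hand for 42 of the 50 genes (RefSeq, build GRCh38.p14, 250 bases before to 50 after each transcript start). The E-box CACGTG, the same on both strands and the best known MYC site, was present in 17 of the 42 (40.5%). It was present in 8.77% of 27305 genes with such a window and in 12.4% of the 10889 of them expressed here. A match describes these letters and is no evidence of binding. RRS1, RRP12, POLR1E, DDX18, RRP1B, BOP1, NOLC1 and NOP58 had no window. The 5 stretches below, from 200 bases before to 30 after the start and written on the gene's strand, belong to genes that the treatments moved. DDX21 (chr10:68956447-68956676, plus strand), RRP9 (chr3:51941875-51942104, minus), PNO1 (chr2:68157688-68157917, plus) and PES1 (chr22:30591881-30592110, minus) fell when FIIN-3 was added, and NHP2 (chr5:178153856-178154085, minus) rose with it. Capitals mark CACGTG, which NHP2 lacks in this stretch.
DDX21: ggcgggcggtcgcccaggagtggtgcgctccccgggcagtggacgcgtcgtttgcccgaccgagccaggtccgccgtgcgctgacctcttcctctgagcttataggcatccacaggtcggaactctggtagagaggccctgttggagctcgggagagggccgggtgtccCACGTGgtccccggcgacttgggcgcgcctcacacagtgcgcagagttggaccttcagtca
RRP9: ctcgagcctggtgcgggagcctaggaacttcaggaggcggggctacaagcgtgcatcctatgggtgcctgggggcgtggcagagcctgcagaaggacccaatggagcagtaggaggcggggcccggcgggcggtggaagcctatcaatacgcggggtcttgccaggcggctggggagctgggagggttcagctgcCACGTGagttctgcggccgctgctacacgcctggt
PNO1: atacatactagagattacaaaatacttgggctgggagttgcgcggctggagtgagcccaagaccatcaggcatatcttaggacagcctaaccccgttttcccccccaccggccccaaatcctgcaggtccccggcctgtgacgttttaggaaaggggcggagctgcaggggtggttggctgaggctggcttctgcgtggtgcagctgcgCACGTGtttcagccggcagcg
PES1: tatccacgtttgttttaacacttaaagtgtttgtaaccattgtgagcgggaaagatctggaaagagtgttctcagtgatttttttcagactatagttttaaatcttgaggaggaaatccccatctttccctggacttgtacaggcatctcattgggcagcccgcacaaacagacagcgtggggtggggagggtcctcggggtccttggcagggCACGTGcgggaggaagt
NHP2: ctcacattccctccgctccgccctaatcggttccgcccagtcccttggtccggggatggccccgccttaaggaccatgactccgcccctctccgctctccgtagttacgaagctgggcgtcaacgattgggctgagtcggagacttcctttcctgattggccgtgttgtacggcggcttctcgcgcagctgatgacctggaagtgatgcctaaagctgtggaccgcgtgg
Of the members with a window, the E-box was present in 12 of the 26 that fell with FIIN-3 on Fulv+FGF2 in the FGFR2 lines, and in 5 of the 15 other tested ones. GNL3 and NOP10, which rose there, were among these 5. The stretches printed are thus no sample of the members, and no link of the E-box with the direction of change was tested.

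Between groups of set 1 the mean log2 CPM over the 49 tested genes moved over a wider range than its typical spread within a group. In such bulk libraries fewer cells with a transcript and less of it per cell cannot be told apart. Group means spanned 0.673, from 4.94 in the K660N line under Fulv+FGF2+FIIN-3 to 5.62 in the FGFR1 line under FGF2, and the median SD within a group was 0.052. In the control lines, the mean was 5.39 ± 0.11 (SD, n = 12) at DMSO, 5.44 ± 0.04 with FGF2, 5.15 ± 0.04 with Fulv and 5.20 ± 0.07 with Fulv+FGF2. It was 5.12 ± 0.07 (n = 11) when FIIN-3 was added to Fulv+FGF2, 5.52 ± 0.04 with Tram and 5.12 ± 0.04 with Palbo. In the FGFR2 lines the corresponding means were 5.39 ± 0.06 (n = 23), 5.55 ± 0.07 (n = 24), 5.18 ± 0.05 and 5.42 ± 0.08, then 5.03 ± 0.11 with FIIN-3, 5.38 ± 0.12 with Tram and 5.27 ± 0.16 with Palbo. In the FGFR1 line they were 5.35 ± 0.04 (n = 5), 5.62 ± 0.05 (n = 6), 5.13 ± 0.03 and 5.47 ± 0.07, then 5.13 ± 0.05, 5.48 ± 0.05 and 5.35 ± 0.06 (n = 5). All libraries of the control lines under Fulv+FGF2+Tram (5.47 to 5.58) lay above all those under Fulv+FGF2 (5.10 to 5.32).

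**Figure D1:**
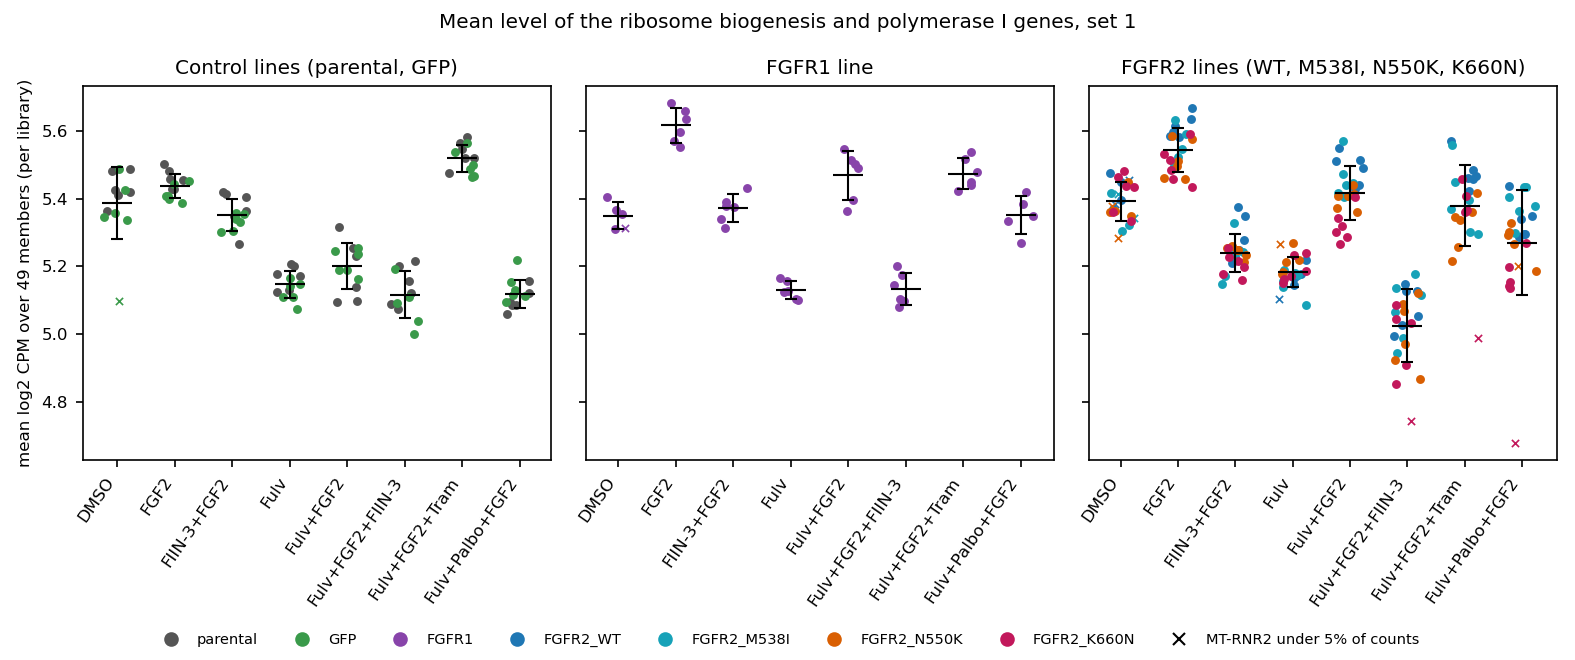
Mean log2 CPM over the 49 tested ribosome biogenesis and polymerase I genes in each library of set 1 (y axis) by treatment (x axis), with one panel per line class. Points are libraries, crosses are libraries with MT-RNR2 under 5% of counts, and bars give the mean and SD. In the FGFR1 and FGFR2 panels the mean rises from Fulv to Fulv+FGF2 (5.18 to 5.42 in the FGFR2 lines) and is low again with FIIN-3 (5.03) but not with Tram (5.38), while in the control lines Tram gives the highest mean (5.52).

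FGF2 on its own raised many of the genes in lines that carry an added receptor. In the FGFR1 line (6 libraries against 5 at DMSO) 14 of 49 members were higher and 5 lower, beside 14.4% and 17.3% of all genes (edgeR, adjusted p below 0.05 throughout). NOC2L, the human relative of a yeast factor of large subunit export, ran from 5.93 through a median of 6.93 to 7.32 log2 CPM with FGF2. Its 5 DMSO libraries had a lowest value of 3.37, a median of 5.31 and a highest value of 6.30, so the groups overlapped, and the log2 fold change was 1.37 ± 0.39 (SE). The initiation factor RRN3 rose by 1.26 ± 0.38, the export factor RRP12 by 1.16 ± 0.26, POLR1B, the second largest polymerase subunit, by 0.92 ± 0.28, the acetyltransferase NAT10 by 0.80 ± 0.25 and POLR1A by 0.79 ± 0.18. POLR1A with FGF2 (4.73 to 5.44) lay above every DMSO library (3.75 to 4.50), as did 6 of the 49 members and 6.72% of all genes.

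FGF2 gave the FGFR2 lines (24 against 23) 20 members higher and 10 lower, beside 21.4% and 26.2% of all genes. NOC2L rose by 0.90 ± 0.23, RRP12 by 0.84 ± 0.13, RRN3 by 0.78 ± 0.17 and the GTPase-like factor TSR1 by 0.56 ± 0.12. The members that fell in both classes were NOP10, NHP2, POLR1C, NOP16 and IMP3. Their size rests on the libraries that stand apart, all of them in the DMSO arms. In the FGFR2 lines NOP10 fell by 1.22 ± 0.28 with all libraries, but its difference was -0.07 without them, and the counts became 17 higher and 2 lower. With a term for ranges of title numbers they were 11 and 0. In the FGFR1 line NOP10 fell by 2.19 ± 0.57 and without those libraries by 0.82, with 19 members higher and 4 lower. Leaving out FGF2 replicate 6 in that line left 8 calls. In the control lines 0 of 49 members passed (12 against 12, beside 3.7% higher and 2.42% lower of all genes), with 7 of 49 at unadjusted p below 0.05 beside 22.4% of all genes, and DESeq2 called 2.

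Fulvestrant alone lowered a few members. In the control lines 0 members were higher and 4 lower (12 against 12, beside 0.572% and 0.977% of all genes): the small subunit factor BYSL fell by 0.53 ± 0.10, NOP56 by 0.52 ± 0.13, the large subunit factor BOP1 by 0.50 ± 0.13 and DKC1 by 0.43 ± 0.11. NOP56 ranged from 6.72 to 7.56 log2 CPM with Fulv (median 6.91) and from 6.86 to 8.13 at DMSO (median 7.50), so the groups overlapped. In the FGFR2 lines 0 were higher and 11 lower (24 against 23, beside 1.08% and 1.86%), including the same 4 genes in other libraries. NOP16 fell by 0.96 ± 0.27, MRTO4 by 0.60 ± 0.14, NOP56 by 0.56 ± 0.12, FBL by 0.46 ± 0.11 and RRS1 by 0.34 ± 0.10. By role these 11 were 4 of 14 large subunit and 2 of 15 small subunit factors, 4 of 9 snoRNP proteins, 1 of 4 abundant nucleolar proteins and 0 of 7 polymerase I genes. The counts lower were 8 and 16 without the libraries that stand apart. In the FGFR1 line 0 members passed (6 against 5, beside 0.0% higher and 0.0791% lower of all genes), with 10 at unadjusted p below 0.05 beside 8.07% of all genes. In the FGF3 line 0 passed (4 against 5, beside 0.0% and 0.0%), with 0 at unadjusted p below 0.05 beside 3.95%. DESeq2 called 0 in both.

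Under fulvestrant, FGF2 raised members of every role in the receptor lines. The FGFR1 line had 14 of 49 higher and 0 lower (6 against 6, beside 12.7% and 14% of all genes), with a median log2 fold change of 0.35 for the members and -0.02 for all genes. The helicase DDX21, which links transcription by polymerase I with processing of its product, lay between 6.24 and 6.78 log2 CPM with FGF2 (median 6.60) and between 5.42 and 5.90 without it (median 5.75), with no overlap, and rose by 0.80 ± 0.14. Of all genes 5.48% lay above in this way, and so did 8 members, among them DDX10 (0.81 ± 0.14), TSR1 (0.81 ± 0.17), the U3 snoRNP protein RRP9 (0.67 ± 0.18), BOP1 (0.63 ± 0.17), the polymerase subunit POLR1E (0.51 ± 0.15) and NCL (0.43 ± 0.13). NOC2L rose by 0.90 ± 0.26 with overlapping groups.

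The FGFR2 lines had 26 higher and 3 lower (24 against 24, beside 16.9% and 20.3%). RRP12 rose by 0.73 ± 0.12, DDX21 by 0.66 ± 0.07, NOC2L by 0.56 ± 0.19, DDX10 by 0.52 ± 0.07, RRN3 by 0.50 ± 0.16 and RRS1, which brings the 5S particle to the large subunit, by 0.49 ± 0.08. By role, 4 of 7 polymerase I genes, 3 of 9 snoRNP proteins, 2 of 4 abundant nucleolar proteins, 10 of 15 small subunit and 7 of 14 large subunit factors rose. POLR1B was higher by 0.45 ± 0.13, POLR1A by 0.35 ± 0.11, POLR1E by 0.22 ± 0.09 and NCL by 0.20 ± 0.05. NOP10, NHP2 and POLR1C were the 3 lower ones, at -0.57 ± 0.22, -0.55 ± 0.18 and -0.44 ± 0.15. Without the libraries that stand apart these 3 were at -0.02, -0.16 and -0.14, and 32 members were higher and 0 lower. With a term for title-number ranges 19 were higher and 0 lower.

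The control lines had 2 members higher, DDX10 (0.35 ± 0.10) and TSR1 (0.33 ± 0.11), and 1 lower, the nucleolar GTPase GNL3 (-0.38 ± 0.09), in 12 against 12 libraries, beside 7.02% and 4.95% of all genes. The difference between classes was tested as an interaction, once for each class against the same control libraries. For the FGFR1 line 3 of 49 were higher than in the control lines and 0 lower (beside 2.03% and 2.77% of all genes): DDX21 by 0.66, RRS1 by 0.66 and the large subunit chaperone GRWD1 by 0.52. For the FGFR2 lines 3 were higher and 0 lower (beside 1.46% and 1.77%): RRP12 by 0.73, DDX21 by 0.52 and RRS1 by 0.51. The count for the FGFR2 lines was 6 without the libraries that stand apart.

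FIIN-3 added to Fulv+FGF2 lowered most of the genes in the FGFR2 lines. There, 33 of 49 were lower and 6 higher (24 against 24), beside 28.6% and 30.3% of all genes, and the median log2 fold change was -0.45 for the members and 0.03 for all genes. RRS1 had values of 3.92 to 5.20 log2 CPM with FIIN-3 (median 4.84) and 5.31 to 6.19 without it (median 5.79). It fell by 0.98 ± 0.08, and it was the only member with no overlap between the 24 and 24 libraries (0.553% of all genes lay below in this way). DDX21 went from a median of 6.66 (6.44 to 7.11) to 5.78 (5.26 to 6.55), a fall of 0.80 ± 0.07. BOP1, whose complex with PES1 and WDR12 is needed for the large subunit, went from 4.69 (4.04 to 5.71) to 3.98 (1.94 to 4.46), a fall of 0.80 ± 0.12. Falls of this size were also seen for RRP1 (-0.77 ± 0.15), the helicase DDX10 (-0.74 ± 0.08) and PPAN (-0.74 ± 0.22, at low counts).

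By role, the falls covered 11 of 14 large subunit factors, 10 of 15 small subunit factors, 6 of 9 snoRNP proteins, 4 of 7 polymerase I genes and 2 of 4 abundant nucleolar proteins. Among the polymerase I genes, RRN3 fell by 0.51 ± 0.15, POLR1A by 0.47 ± 0.11, POLR1E by 0.44 ± 0.09 and POLR1B by 0.38 ± 0.13, whereas UBTF was at -0.05 ± 0.08 and did not pass. POLR1A was at a median of 4.35 with FIIN-3 (1.76 to 5.12) and 4.91 without (4.15 to 5.21), so its groups overlapped over most of their range. NOP56 fell by 0.66 ± 0.07 and FBL by 0.21 ± 0.08. NCL went from a median of 8.63 (8.40 to 8.81) to 8.18 (7.15 to 8.40), a fall of 0.45 ± 0.06. NPM1, the most abundant of the abundant nucleolar proteins, was at a median of 9.61 with FIIN-3 (9.32 to 9.99) and 9.59 without (9.15 to 10.37), with a difference of 0.02 ± 0.08.

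The 6 higher members were NOP10 (0.57 ± 0.24), NHP2 (0.34 ± 0.13), TAF1D (0.33 ± 0.07), POLR1C (0.32 ± 0.10), GNL3 (0.29 ± 0.08) and WDR12 (0.28 ± 0.10), the third partner of BOP1 and PES1. POLR1C is also a subunit of RNA polymerase III. Without the libraries that stand apart 35 were lower and 4 higher, NOP10 was at 0.15 and NHP2 at 0.19. With a term for title-number ranges 34 were lower and 1 higher, and NOP10 was at -0.03. The share of MT-RNR2 did not pass between these arms (0.29 ± 0.14).

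**Figure D2:**
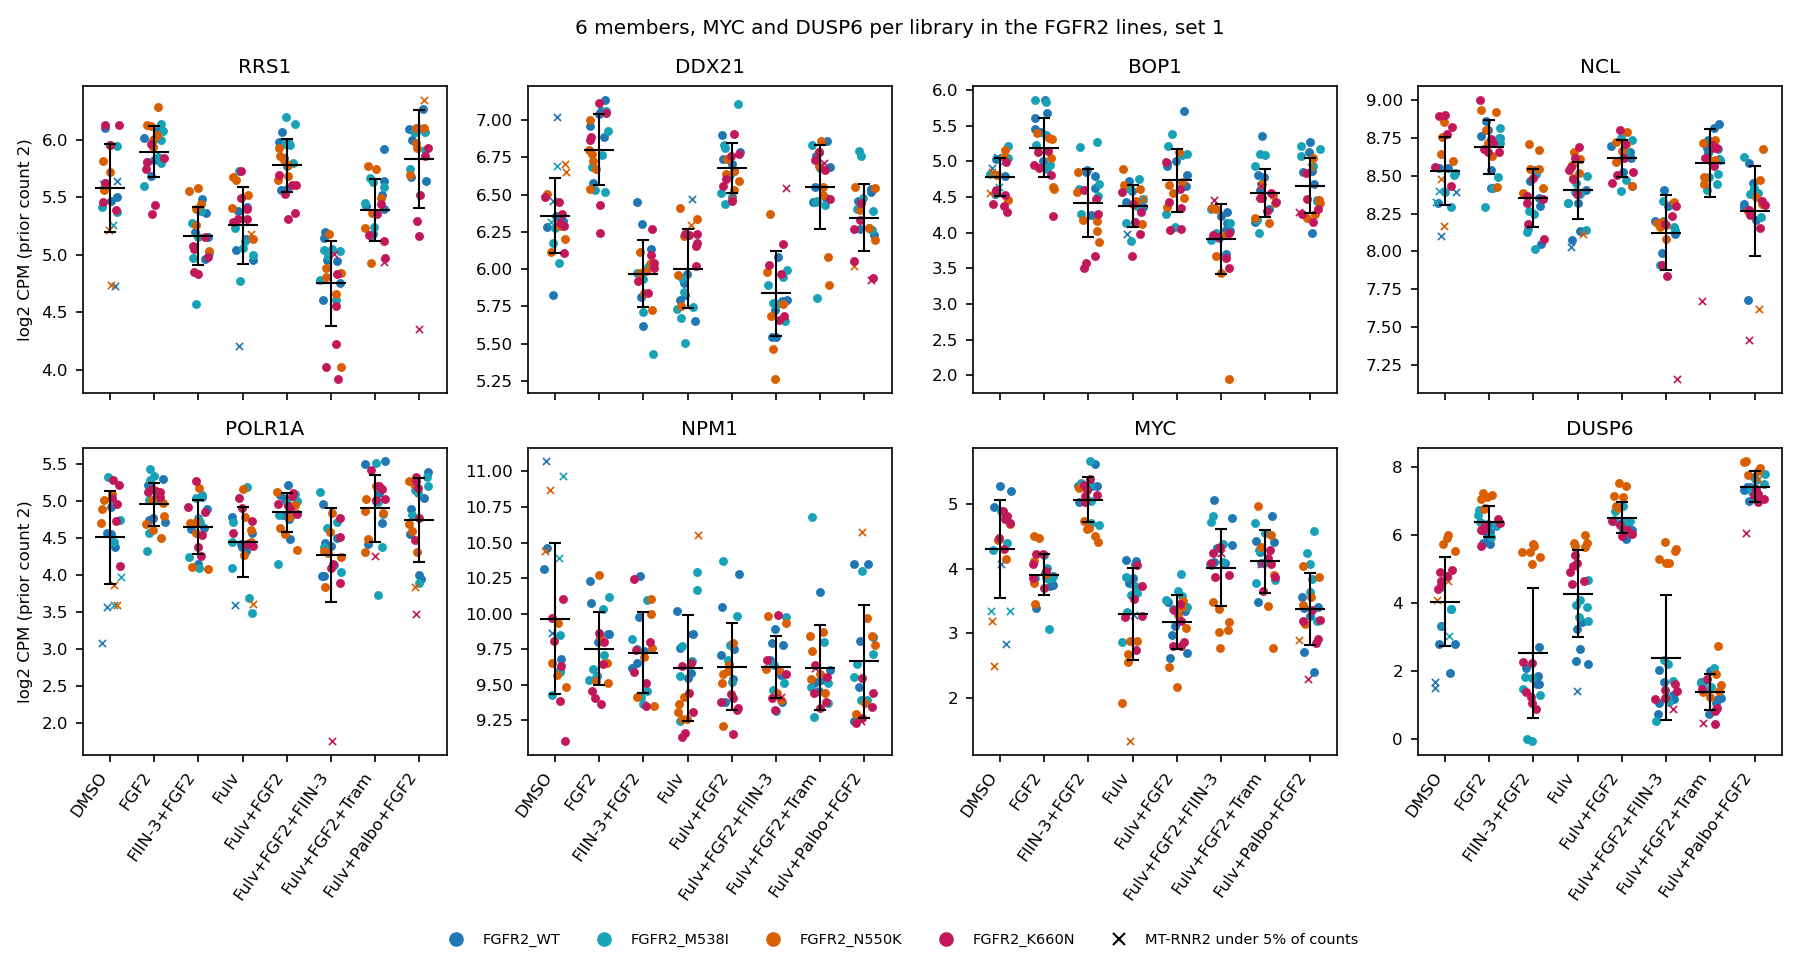
Log2 CPM (y axes, different ranges) of RRS1, DDX21, BOP1, NCL, POLR1A and NPM1, with the ERK feedback gene DUSP6 and with MYC, in each library of the 4 FGFR2 lines in set 1, by treatment (x axes). Points are libraries, crosses those with MT-RNR2 under 5% of counts, and bars the mean and SD. RRS1 with Fulv+FGF2+FIIN-3 stays at or below 5.20 and without FIIN-3 at or above 5.31, NPM1 shows no such step, and the high DUSP6 values under FIIN-3 all belong to the N550K line.

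The FGFR1 line had 17 members lower and 0 higher with FIIN-3 on Fulv+FGF2 (6 against 6, beside 15.1% and 14.7% of all genes). BOP1 fell by 0.95 ± 0.20, RRP9 by 0.91 ± 0.20, RRS1 by 0.90 ± 0.14, NOC2L by 0.84 ± 0.23, DDX10 by 0.80 ± 0.17 and POLR1E by 0.70 ± 0.16. RRS1 lay between 4.76 and 5.12 log2 CPM with FIIN-3 and between 5.49 and 6.24 without, and 8 members in all lay below without overlap, as did 5.64% of all genes. All 17 were among the 33 that fell in the FGFR2 lines, whose libraries are separate. Such overlaps of calls were counted for the members only, here and elsewhere, so no share over all genes stands beside them. In the control lines 5 were lower and 2 higher (11 against 12, beside 13.8% and 10.9%). NOP56 fell by 0.47 ± 0.11, DKC1 by 0.43 ± 0.09, POLR1E by 0.40 ± 0.09, DDX10 by 0.30 ± 0.09 and NCL by 0.29 ± 0.06. GNL3 rose by 0.62 ± 0.08 and TAF1D by 0.46 ± 0.12. DDX10, DKC1, NCL and POLR1E fell in all 3 classes.

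The response to FIIN-3 differed between the FGFR2 lines and the control lines for 14 members, all with a deeper fall in the FGFR2 lines (0 the other way, beside 4.56% of all genes lower and 4.38% higher, or 18 members without the libraries that stand apart). This interaction was chosen after seeing the data. The differences were -0.96 for RRP12, -0.84 for RRS1, -0.78 for NOC2L, -0.76 for DDX21, -0.65 for the small subunit export factor LTV1 and -0.63 for WDR43. The same test for the FGFR1 line, against the same control libraries, gave 2 lower and 0 higher (beside 2.06% and 2.48%): NOC2L at -0.95 and RRS1 at -0.75. The median over members was -0.31 in the test of the FGFR2 lines and -0.25 in that of the FGFR1 line. The FGFR1 line had 6 libraries per arm and the FGFR2 lines 24, so the counts of the 2 classes are not comparable.

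FIIN-3 was also added to FGF2 without fulvestrant and, in set 2, to Palbo+FGF2, in separate libraries. The first of these comparisons was chosen after seeing the data. The FGFR2 lines had 32 members lower and 5 higher on FGF2 alone (23 against 24, beside 28.7% and 28.3%, or 29 and 2 with a term for title-number ranges), and 26 lower and 7 higher on Palbo+FGF2 (23 against 22, beside 26.8% and 28.2%). RRS1 fell by 0.73 ± 0.07 and 0.83 ± 0.08 in these 2 backgrounds, BOP1 by 0.76 ± 0.10 and 0.95 ± 0.11, PNO1, a factor of small subunit maturation, by 0.65 ± 0.08 and 0.74 ± 0.07, and DDX21 by 0.83 ± 0.07 and 0.53 ± 0.06. In all 3 backgrounds 24 members were lower, out of 33, 32 and 26, and GNL3, NHP2, TAF1D and WDR12 were higher. None of the 24 was a polymerase I gene: POLR1E fell on Fulv+FGF2 and on FGF2 (0.52 ± 0.08) but was not called on Palbo+FGF2. MT-RNR2 was higher with FIIN-3 on FGF2 (0.37 ± 0.10) and on Palbo+FGF2 (0.47 ± 0.05) in these lines, and its part in the result was not tested.

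The FGFR1 line had 10 lower and 4 higher on FGF2 alone (6 against 6, beside 15.2% and 16.2%), with RRP12 at -0.81 and NOC2L at -0.79. With a term for title-number ranges it had 21 lower and 0 higher. On Palbo+FGF2 it had 4 lower and 0 higher (6 against 6, beside 7.5% and 8.84%): BOP1 (-1.07), RRS1 (-0.70), RRP12 (-0.63) and DDX21 (-0.61), with MT-RNR2 higher by 0.55 ± 0.15. The control lines had 5 lower and 3 higher on FGF2 alone (12 against 12, beside 12.5% and 12.5%). On Palbo+FGF2 they had 2 lower, BOP1 (-0.65) and RRS1 (-0.45), and 1 higher, GNL3 (0.32), of 48 tested (10 against 9, beside 4.7% and 4.75%).

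**Figure D3:**
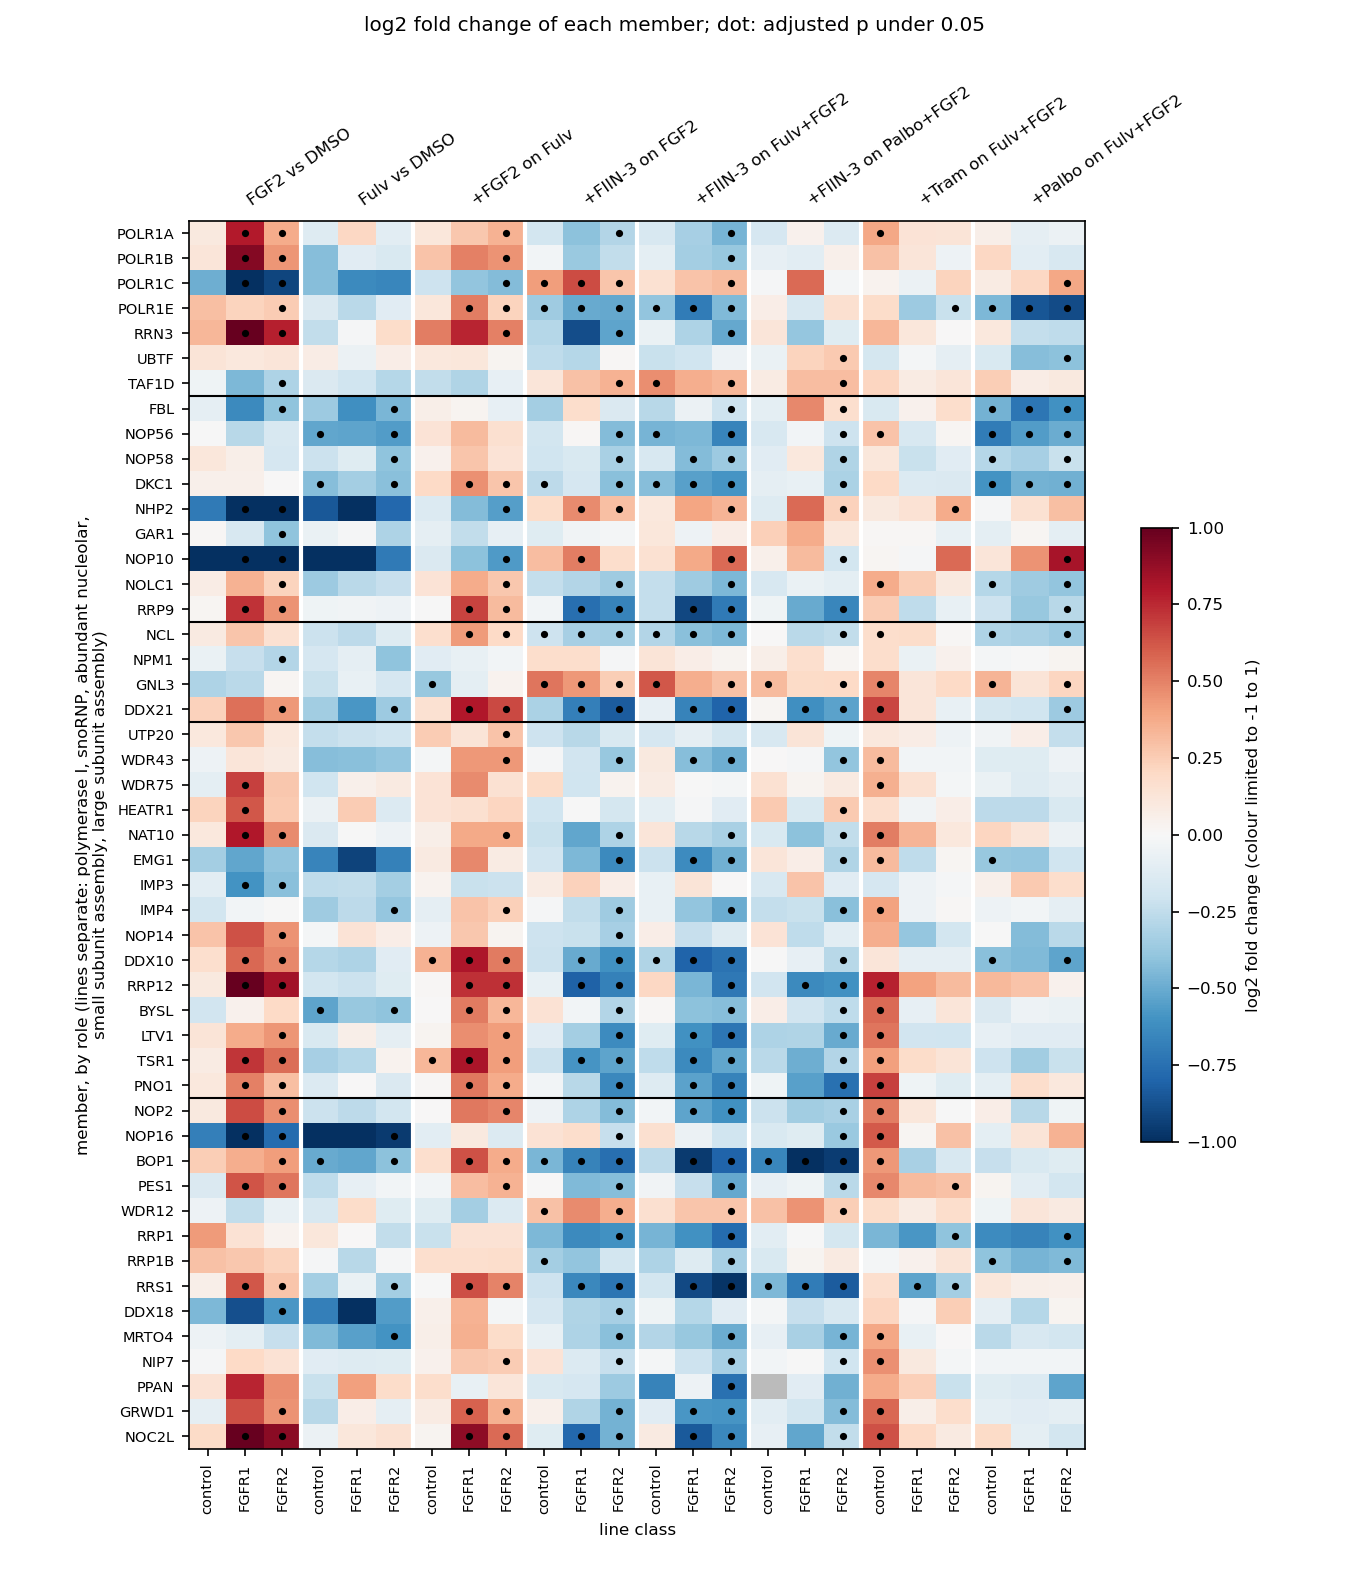
Log2 fold change of each of the 49 tested members (rows, grouped by role) in 8 treatment comparisons within the control, FGFR1 and FGFR2 classes (columns). Colour gives the fold change, limited to -1 to 1, a dot marks adjusted p below 0.05 in edgeR, and grey marks a gene not tested. The FIIN-3 columns are mostly blue in the FGFR2 lines (33 of 49 called lower on Fulv+FGF2), NOP10, NHP2, GNL3 and TAF1D run the other way there, and the Tram column is mostly red in the control lines (24 called higher).

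Trametinib blocks the ERK pathway downstream of the receptor, and it did not lower the genes as FIIN-3 did. The FIIN-3 and Tram comparisons share the Fulv+FGF2 libraries, so their values are set side by side. In the FGFR2 lines Tram gave 2 members higher and 3 lower (24 against 24, beside 15.3% and 13.7% of all genes): NHP2 (0.37 ± 0.14) and PES1 (0.29 ± 0.11) rose, and RRP1 (-0.40 ± 0.14), RRS1 (-0.34 ± 0.06) and POLR1E (-0.22 ± 0.08) fell. DDX21 was at -0.08 ± 0.07, POLR1A at 0.13 ± 0.10 and NCL at 0.01 ± 0.06. Without the libraries that stand apart 4 were higher and 3 lower, and NHP2 was at 0.19 and not called. In the FGFR1 line the 1 call was RRS1, which fell by 0.53 ± 0.12 (6 against 6, 0 higher, beside 5.83% lower and 5.48% higher). DUSP6, a phosphatase induced by ERK and a readout of its activity, fell with both agents. Line by line, it changed on the log2 scale in wild type (-4.94 ± 0.20 with FIIN-3 and -4.95 ± 0.21 with Tram), M538I (-4.94 ± 0.25 and -5.06 ± 0.24) and K660N (-4.93 ± 0.18 and -5.21 ± 0.23). In N550K it fell by 1.69 ± 0.17 with FIIN-3 and 5.54 ± 0.24 with Tram. Tested directly, DUSP6 was lower with Tram than with FIIN-3 in N550K (-3.80 ± 0.25) and GFP cells (-1.68 ± 0.38). It did not pass in parental cells (-0.76 ± 0.38), wild type (-0.01 ± 0.35), M538I (-0.08 ± 0.39), K660N (-0.28 ± 0.34) or the FGFR1 line (-0.81 ± 0.35). DUSP6 was low in these lines with either agent. In wild type its mean was 1.33 log2 CPM with FIIN-3 and 1.31 with Tram, beside 1.25 in parental cells at DMSO. Values this low cannot show that ERK activity was equal under both agents. In the same direct test 27 of 49 members were higher and 0 lower in wild type (beside 20.2% and 17.9% of all genes), 15 and 0 in M538I (11.2% and 9.77%), 12 and 0 in N550K (6.75% and 5.81%), and 2 and 0 in K660N (4.88% and 3.73%), or 21 and 2 in K660N without its library that stands apart.

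In the control lines Tram raised the genes: 24 of 49 were higher and 0 lower (12 against 12, beside 11.8% and 16% of all genes), with a median of 0.31 for the members and -0.02 for all genes. RRP12 rose by 0.77 ± 0.12, PNO1 by 0.69 ± 0.09, DDX21 by 0.67 ± 0.10, NOC2L by 0.64 ± 0.11, NOP16 by 0.61 ± 0.09 and GRWD1 by 0.58 ± 0.08. DDX21 lay between 6.35 and 6.77 log2 CPM with Tram (median 6.48) and between 4.99 and 6.32 without (median 5.92), with no overlap, and 0.768% of all genes lay above in this way. By role 10 of 15 small subunit factors, 8 of 14 large subunit factors and 3 of 4 abundant nucleolar proteins rose, against 2 of 9 snoRNP proteins and 1 of 7 polymerase I genes, POLR1A (0.39 ± 0.13). MT-RNR2 was lower with Tram in these lines (-0.23 ± 0.09), and its part was not tested. The interaction against the control lines, chosen after seeing the data, gave 10 members lower and 0 higher in the FGFR1 line (beside 2.83% and 2.95% of all genes) and 10 lower and 0 higher in the FGFR2 lines (beside 3.17% and 5.51%). PNO1 was at -0.74 and -0.82, DDX21 at -0.56 and -0.76, LTV1 at -0.73 and -0.74 and BOP1 at -0.77 and -0.60 in these 2 tests, which share the control libraries. The count in the FGFR2 lines was 16 without the libraries that stand apart.

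**Figure D4:**
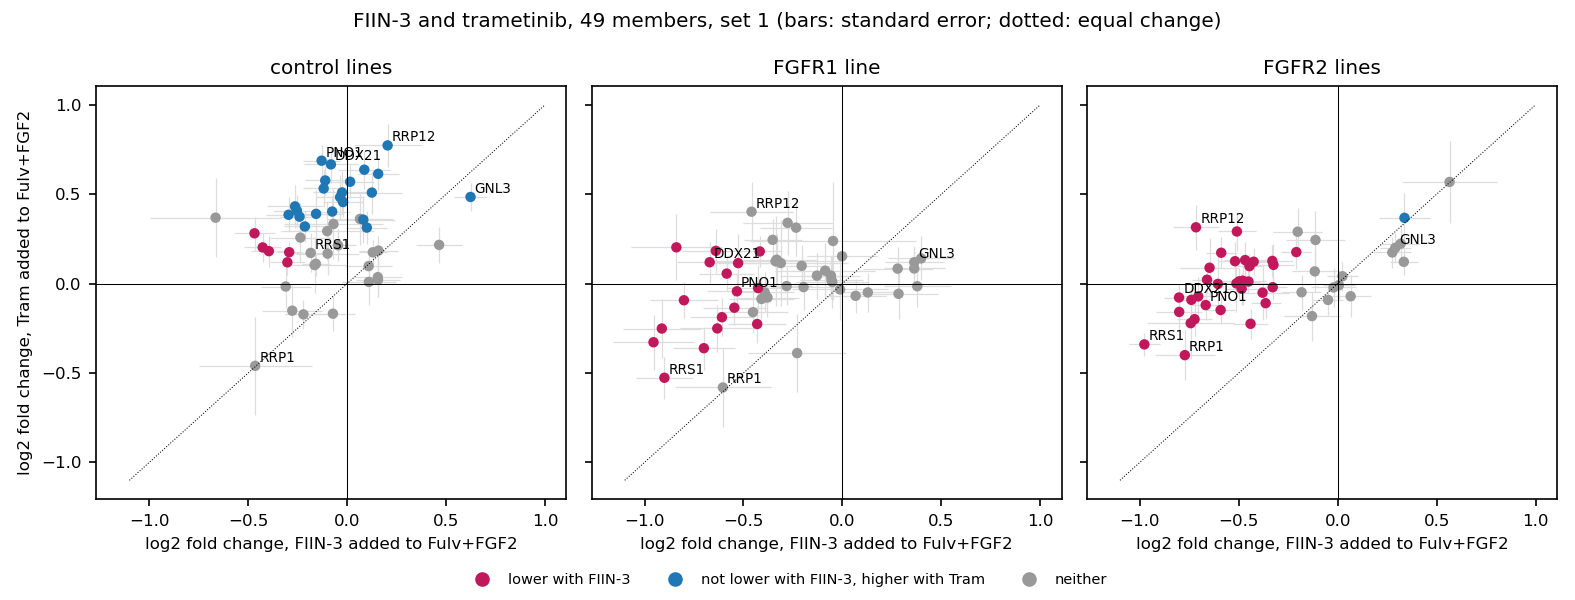
Log2 fold change of each member with Tram (y axis) against that with FIIN-3 (x axis), both relative to the same Fulv+FGF2 libraries, in the control lines, the FGFR1 line and the FGFR2 lines. Bars are standard errors and the dotted line marks equal change. In the FGFR2 panel RRS1 lies at -0.98 with FIIN-3 and -0.34 with Tram, and in the control panel RRP12, PNO1 and DDX21 lie at 0.67 to 0.77 with Tram. The shared libraries tie both axes, so the vertical distance from the dotted line, which the direct comparison of Tram with FIIN-3 tests, is what can be read.

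Compared directly, the genes were higher with Tram than with FIIN-3 in every class. On Fulv+FGF2, 32 members were higher and 1 lower in the control lines (12 against 11, beside 21.7% and 21.5% of all genes), 14 and 1 in the FGFR1 line (6 against 6, beside 13.6% and 16.4%), and 31 and 1 in the FGFR2 lines (24 against 24, beside 25.5% and 25.9%, or 34 and 1 without the libraries that stand apart). RRP12 was higher by 0.58 ± 0.17, 0.81 ± 0.17 and 1.02 ± 0.14 in these classes, DDX21 by 0.76 ± 0.10, 0.74 ± 0.14 and 0.70 ± 0.09, GRWD1 by 0.70 ± 0.09, 0.59 ± 0.13 and 0.75 ± 0.10, and NCL by 0.48 ± 0.06, 0.55 ± 0.10 and 0.45 ± 0.07. DDX21 did not overlap between the arms in the control lines (6.35 to 6.77 against 5.37 to 6.19) or the FGFR1 line (6.53 to 6.91 against 5.39 to 6.28), and 2.72% and 5.94% of all genes lay above in this way. The lower members were TAF1D in the control lines (-0.23 ± 0.08) and the FGFR2 lines (-0.23 ± 0.08) and NOP10 in the FGFR1 line (-0.44 ± 0.14). In all 3 classes 14 members were higher, out of 32, 14 and 31, so every higher call of the FGFR1 line was shared.

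Set 2 repeated this comparison in other libraries with palbociclib present (chosen after seeing the data). There 31 of 48 members were higher with Tram and 2 lower in the control lines (12 against 11, beside 19.5% and 19.6%), 20 of 48 and 0 in the FGFR1 line (6 against 6, beside 12.6% and 12.5%), and 30 of 49 and 3 in the FGFR2 lines (23 against 22, beside 26.1% and 29.6%). PNO1 was higher by 0.88 ± 0.10, 1.00 ± 0.17 and 0.87 ± 0.09, LTV1 by 0.78 ± 0.12, 0.81 ± 0.16 and 0.82 ± 0.08, DDX21 by 0.73 ± 0.07, 0.86 ± 0.11 and 0.62 ± 0.06, and RRP12 by 0.70 ± 0.08, 0.88 ± 0.12 and 0.71 ± 0.06. In the FGFR1 line PNO1 lay between 4.96 and 5.70 log2 CPM with Tram and between 3.79 and 4.70 with FIIN-3. There 9 members and 4.4% of all genes lay above without overlap. The 3 lower members of the FGFR2 lines were NOP14 (-0.47 ± 0.16), UBTF (-0.34 ± 0.07) and TAF1D (-0.19 ± 0.07). With and without palbociclib, 26 members were higher in the FGFR2 lines, out of 30 and 31, and 27 in the control lines, out of 31 and 32. MT-RNR2 was lower with Tram than with FIIN-3 by 0.48 ± 0.07 in the control lines of set 1 and by 0.49 ± 0.09 to 0.51 ± 0.12 in the 3 classes of set 2, and its part in these results was not tested.

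Fitted line by line (chosen after seeing the data), the fall with FIIN-3 was present in each of the 4 FGFR2 lines. On Fulv+FGF2 with 6 against 6 libraries, 27 members were lower in the wild-type line (beside 17.6% of all genes), 20 in M538I (18%), 17 in N550K (8.02%) and 14 in K660N (13.1%), against 1 in parental cells (6.78%) and 3 in GFP cells (8.4%, 5 against 6). Higher members numbered 2, 0, 1 and 4 in the FGFR2 lines (beside 16.9%, 16.1%, 9.39% and 13.2%) and 1 in each control line (3.6% and 6.89%). RRS1 fell by 0.82 ± 0.14, 1.07 ± 0.14, 0.96 ± 0.17 and 1.02 ± 0.20 in wild type, M538I, N550K and K660N. NOP10 was at 2.19 ± 0.67 in K660N and between -0.11 and 0.25 in the other 3, and without the 1 K660N library that stands apart that line had 19 members lower. The N550K line stood out for DUSP6, which fell by only 1.69 ± 0.17 there against 4.93 to 4.94 in the other 3. The interaction of N550K against the other FGFR2 lines passed for DUSP6 (3.22 ± 0.21) and for 0 of 49 members (beside 1.41% higher and 0.187% lower of all genes), with 1 at unadjusted p below 0.05 (beside 8.51% of all genes) and 0 called by DESeq2.

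Tram gave 13 members higher in parental cells (beside 2.97%) and 15 in GFP cells (7.79%), with 0 lower (4.59% and 10.1%). In each FGFR2 line it gave 0 members in either direction (beside 1.27% to 5.1% higher and 1.79% to 4.93% lower of all genes), or 3 higher and 1 lower in K660N without its library that stands apart. FGF2 on Fulv gave 9 members higher in wild type (beside 7.47%), 3 in M538I (4.71%), 1 in K660N (0.888%) and 0 in N550K (0.257%), parental (2.27%) and GFP cells (3.3%). Without the libraries that stand apart, wild type had 15 and N550K 5.

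**Figure D5:**
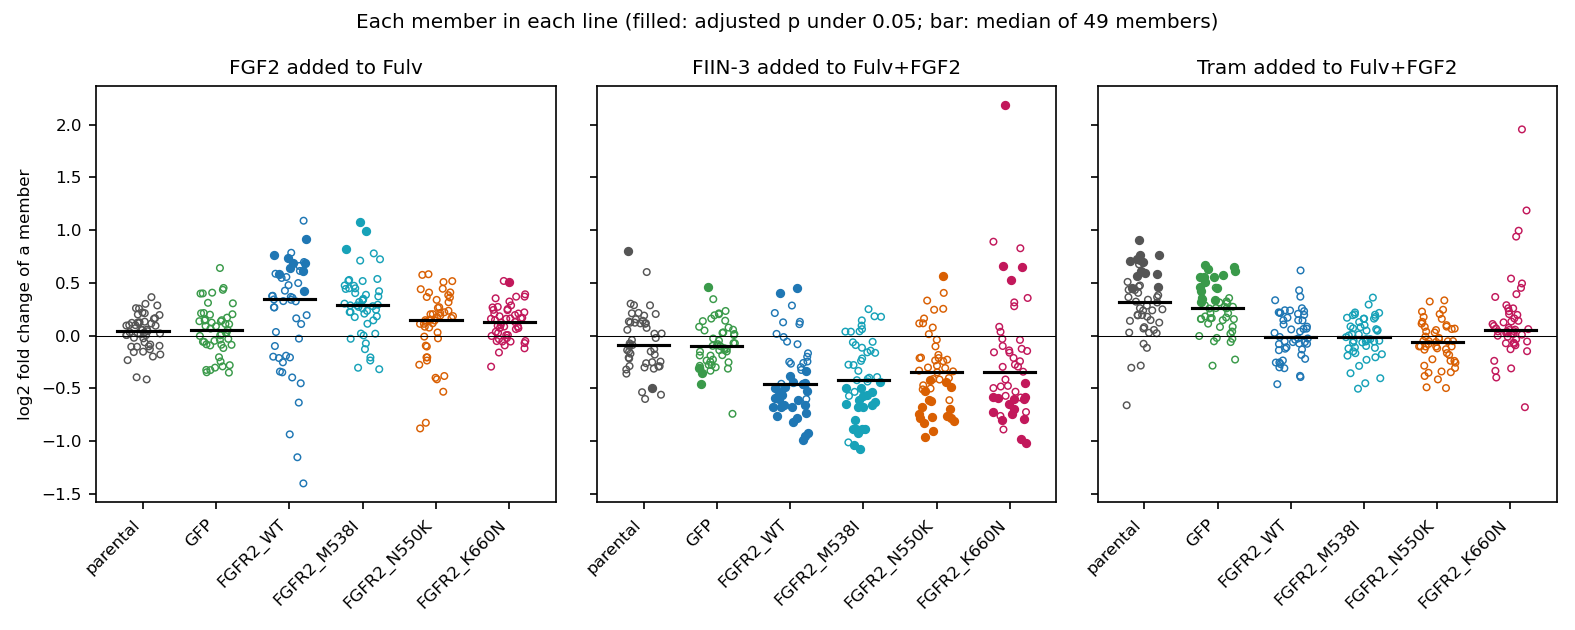
Log2 fold change of each of the 49 members (y axis) in each control and FGFR2 line (x axis) when FGF2 was added to Fulv, and when FIIN-3 or Tram was added to Fulv+FGF2. Filled points passed adjusted p below 0.05 and bars are medians over members. FIIN-3 medians are -0.46 to -0.34 in the FGFR2 lines and about -0.09 to -0.10 in parental and GFP cells, Tram medians are 0.32 and 0.26 in those control lines and -0.06 to 0.06 in the FGFR2 lines, and the isolated high K660N point is NOP10.

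Palbociclib on Fulv+FGF2 lowered some of the members, among which snoRNP proteins were the most numerous role. It gave 10 members lower and 1 higher in the control lines (12 against 12, beside 14.6% and 11.3% of all genes), 4 lower and 0 higher in the FGFR1 line (5 against 6, beside 8.32% and 4.37%) and 13 lower and 3 higher in the FGFR2 lines (24 against 24, beside 17.6% and 18%). The members lower were 20.4%, 8.16% and 26.5% of the 49, so the FGFR1 line had no larger share than all genes. Without the libraries that stand apart the FGFR2 lines had 15 lower and 3 higher. Of the 9 snoRNP proteins 5, 3 and 6 were lower, while large subunit factors had 2 of 14 and small subunit factors 1 of 15 lower in the FGFR2 lines. NOP56 fell by 0.70 ± 0.11, 0.56 ± 0.16 and 0.50 ± 0.09 in the 3 classes, FBL by 0.48 ± 0.16, 0.73 ± 0.16 and 0.60 ± 0.08, DKC1 by 0.60 ± 0.09, 0.47 ± 0.13 and 0.48 ± 0.08, and POLR1E by 0.45 ± 0.09, 0.85 ± 0.17 and 0.89 ± 0.09. POLR1E in the FGFR1 line lay between 3.39 and 4.17 with Palbo and between 4.52 and 5.03 without. In that line 2 of the 49 members and 4.57% of all genes lay below without overlap. UBTF fell by 0.41 ± 0.09 in the FGFR2 lines, and RRS1 was not called in any class (0.05 to 0.12). The higher members were GNL3 in the control lines (0.34 ± 0.08), and NOP10 (0.82 ± 0.26, or 0.29 without the libraries that stand apart), POLR1C (0.39 ± 0.11) and GNL3 (0.22 ± 0.08) in the FGFR2 lines. With a term for title-number ranges the FGFR2 lines had 12 lower and 0 higher. Of the members lower in the control lines, 9 of 10 were among the 13 of the FGFR2 lines: DDX10, DKC1, FBL, NCL, NOLC1, NOP56, NOP58, POLR1E and RRP1B.

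Under palbociclib without fulvestrant, FGF2 raised 9 members and lowered 0 in the FGFR1 line (6 against 6, beside 12.9% and 11.9%). BOP1 lay between 4.92 and 5.68 log2 CPM with FGF2 and between 3.69 and 4.2 without, and rose by 1.38 ± 0.17. In this line 3 members and 4.9% of all genes lay above without overlap. RRS1 rose by 0.67 ± 0.13, RRP12 by 0.67 ± 0.12 and PNO1 by 0.57 ± 0.13. The FGFR2 lines had 11 higher and 7 lower (22 against 24, beside 18.5% and 20.7%), with BOP1 at 0.59 ± 0.12 and RRP12 at 0.43 ± 0.08, and with POLR1C at -0.32 ± 0.09, NHP2 at -0.31 ± 0.08 and POLR1E at -0.29 ± 0.10. Without the filter on low counts the lower calls were 2. In the control lines 0 of 48 passed (9 against 11, beside 0.778% and 0.331%), with 2 at unadjusted p below 0.05 (beside 11.3% of all genes) and 0 called by DESeq2.

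The FGF3 line carries the gene of its own ligand and was treated without added FGF2. FIIN-3 on Fulv lowered 5 members and raised 0 (6 against 4, beside 7.79% and 5.34% of all genes): BOP1 (-0.73 ± 0.23), RRS1 (-0.72 ± 0.17), NOP56 (-0.58 ± 0.13), NOC2L (-0.57 ± 0.14) and the nucleolar chaperone NOLC1 (-0.53 ± 0.13). RRS1 lay between 4.50 and 5.24 log2 CPM with FIIN-3 and between 5.48 and 5.90 in the 4 libraries without it. Without overlap 5 members and 5.43% of all genes lay below. The members called lower were 10.2% of the 49, near the 7.79% of all genes. With a term for title-number ranges 14 were called. MT-RNR2 was higher with FIIN-3 here (0.54 ± 0.15). The summed markers of other cell types had a median of 146.4 CPM in the 4 Fulv libraries (45.9 to 226.4) and 51.1 with FIIN-3 (34.2 to 122.8), with 1 of 3 tested lower. The part of either was not tested. Tram on Fulv gave 0 calls (6 against 4, beside 2.99% and 4.44%, with the summed markers at a median of 42.9 CPM), with 40 of 49 above 0, a median of 0.21, 8 at unadjusted p below 0.05 (beside 20.8% of all genes) and 0 called by DESeq2. Palbo on Fulv lowered 5 and raised 0 (6 against 4, beside 5.56% and 1.47%): NOP58 (-0.68 ± 0.18), NOP56 (-0.65 ± 0.14), DKC1 (-0.53 ± 0.16), NOLC1 (-0.47 ± 0.13) and NCL (-0.41 ± 0.12), of which 1 call was left without Fulv replicate 2. These 3 comparisons share the 4 Fulv libraries.

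In set 2, Palbo against the group labelled control lowered DKC1 alone in the FGF3 line (-0.54 ± 0.15, 6 against 6, 48 tested, 0 higher, beside 4.8% lower and 1.73% higher), and 6 members without the 1 library that stands apart. Tram was compared with FIIN-3 on Fulv+Palbo in this line (chosen after seeing the data). It gave 5 of 48 members higher and 0 lower (4 against 6, beside 2.97% and 3.04%): NOP2 (1.09 ± 0.23), PNO1 (0.91 ± 0.24), DDX21 (0.88 ± 0.17), RRP12 (0.83 ± 0.20) and NIP7 (0.75 ± 0.20). The count was 2 without Tram replicate 1 and 13 without FIIN3 replicate 6.

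At DMSO few members were called in the FGFR1 or FGFR2 lines against the control lines. In the FGF3 line 8 were called, near the share of all genes. The FGFR1 line had 0 of 49 called against the control lines (5 against 12, beside 0.00761% higher and 0.0% lower of all genes), with 3 at unadjusted p below 0.05 (beside 9.85% of all genes) and 0 called by DESeq2. The FGFR2 lines had 2 higher, RRP1 (0.73 ± 0.18) and BOP1 (0.42 ± 0.12), and 0 lower (23 against 12, beside 6.91% and 3.18%), and 7 calls without the libraries that stand apart. The FGF3 line had 3 higher and 5 lower (5 against 12, beside 6.08% and 6.79%), in libraries with a median of only 1854451 counts. Of the 49 members these were 6.12% and 10.2%. RRP12 (0.88 ± 0.25), NOP2 (0.78 ± 0.22) and BOP1 (0.64 ± 0.20) were higher, and TAF1D (-1.18 ± 0.23), NOP58 (-0.97 ± 0.20), WDR75 (-0.96 ± 0.26), WDR43 (-0.77 ± 0.19) and DDX10 (-0.51 ± 0.16) lower. The count was 10 without the library that stands apart and 4 without FGF3 DMSO replicate 2. Of 4 tested markers of other cell types 3 were higher in the FGF3 line, with a median of 1.82 on the log2 scale, and their part in this result was not tested.

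MYC mRNA moved the same way as the members with some treatments and the other way with others. On Fulv+FGF2 with FIIN-3 MYC rose by 0.82 ± 0.12 in the control lines and 1.47 ± 0.17 in the FGFR1 line. In the 4 FGFR2 lines pooled it rose by 0.90 ± 0.12. Members lower in these classes were 10.2%, 34.7% and 67.3% of the 49, beside 13.8%, 15.1% and 28.6% of all genes. The control lines thus had no larger share than all genes. In the N550K line, where 17 members fell, MYC was at 0.15 ± 0.26 and did not pass. Tram raised MYC by 0.53 ± 0.11 in the control lines, 1.00 ± 0.15 in the FGFR1 line and 1.04 ± 0.13 in the FGFR2 lines. There 24, 0 and 2 members were higher with Tram and 0, 1 and 3 lower. FGF2 on DMSO lowered it by 1.18 ± 0.26 in the FGFR1 line and 0.51 ± 0.15 in the FGFR2 lines. With fulvestrant MYC fell by 0.86 ± 0.16 in the control lines and 1.10 ± 0.17 in the FGFR2 lines, where members fell too. Across the 64 group means of set 1 the correlation of the 49-gene mean with MYC was -0.045, with DUSP6 0.209 and with the log10 median depth 0.314. In the 48 groups of set 2 the values were -0.048, 0.303 and 0.12. These describe groups that share lines and libraries' depth and carry no p.

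The members did not all follow their common mean. Over the same 64 group means, the correlation of a member with the mean of the other 48 had a median of 0.53, was above 0 for 43 of 49 and above 0.5 for 27. It was highest for MRTO4 (0.859), DKC1 (0.847), DDX21 (0.823) and NCL (0.817). It was below 0 for TAF1D, WDR12, NHP2, UBTF, POLR1C (-0.066) and NOP10 (-0.226). These values are a description, since members share each library's depth and scaling.

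Other genes of the same and related pathways were counted from lists in the same fits. Of 74 other ribosome biogenesis factors tested, FGF2 on Fulv raised 1 in the control lines, 24 in the FGFR1 line and 36 in the FGFR2 lines and lowered 0 in each (of all genes it raised 7.02%, 12.7% and 16.9%). FIIN-3 on Fulv+FGF2 raised 2, 0 and 1 and lowered 7, 23 and 49 (of all genes it lowered 13.8%, 15.1% and 28.6%), and Tram raised 35, 0 and 5 and lowered 1, 1 and 9 (of all genes it raised 11.8%, 5.48% and 15.3%). Of 9 other polymerase I genes FIIN-3 raised 1, 1 and 2 and lowered 2, 2 and 4. Among 19, 19 and 20 RNA polymerase III genes tested, which make 5S ribosomal RNA and transfer RNA, it raised 0, 1 and 2 and lowered 4, 3 and 9. Tram raised 3, 0 and 1 of these genes and lowered 3, 2 and 3. Of MYC and its partners (8, 7 and 8 tested), FIIN-3 raised 5 in each class and lowered 1, 1 and 2. Of the ERK feedback genes (5, 5 and 8 tested), FGF2 on Fulv raised 4, 5 and 8 and FIIN-3 lowered 4, 5 and 8, with none moving the other way. Of 7 luminal markers, FIIN-3 raised 3, 2 and 3 and lowered 0, 3 and 3. Of the markers of other cell types, 3, 3 and 4 had enough counts to be tested, and FIIN-3 raised 0, 1 and 1 and lowered 0, 0 and 2.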

How the data were processed

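RNA of 647 SMART-Seq2 libraries was sequenced. STAR and the build hg19 are named in the submitters' processing notes. Counter, annotation and software versions are not given in the sources used here. As tables, the authors deposited a table of gene counts (647 columns used, not normalized) and one of log2(TPM + 1), from which 45 DMSO columns gave levels and 602 columns were not used. The members and lists were chosen with earlier results of these data known. Groups came from the labels and the sets from the title numbers, with some FIIN-3 libraries placed in a set by the neighbouring numbers. Of 1559 pairs of libraries within groups, 0 held identical counts. Counts were tested with edgeR 4.0.16 (R 4.3.3): filterByExpr (minimum count 10), TMM normalization, quasi-likelihood test, line as an additive term where lines were pooled, Benjamini-Hochberg adjustment over all genes tested, threshold 0.05. Of 49 comparisons, 11 were added after seeing the data, as were the fits of single lines. Log2 CPM used a prior count of 2. Values are given mainly for up to 6 members per direction with the largest called change. Of a fixed set of polymerase I, snoRNP and nucleolar genes with RRS1, values are printed in part. Which of these and which other genes are printed was chosen after their values were seen. Alternatives were DESeq2 1.42.0 (size factors, Wald test), no filter, a term for ranges of 96 title numbers, leaving out libraries with MT-RNR2 under 5% of counts, and leaving out single libraries where an arm held 5 or fewer. Scripts were tested on simulated data. Fold changes of genes with few reads, such as PPAN, are the least precise.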

Additional observations from a re-analysis of the deposited data

Results flagged for a closer look

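In 8 groups of line and treatment, 1 library lay far from the rest of its group in the mean log2 CPM over the members (Dixon's test at the 95% level, which chance passes in about 1 in 20 groups). In set 1 these were K660N Fulv+FGF2+Tram replicate 3 at 4.989 (others 5.362 to 5.459), K660N Fulv+Palbo+FGF2 replicate 4 at 4.677 (others 5.136 to 5.269) and N550K FIIN-3 replicate 1 at 4.701 (others 5.153 to 5.265), the last with only 512961 counts. In set 2 they were GFP Fulv+Palbo+FGF2+FIIN-3 replicate 3 at 5.08, M538I Palbo+FGF2 replicate 1 at 5.401, K660N Palbo+FGF2 replicate 1 at 5.679, FGF3 control replicate 3 at 4.553 and FGF3 Fulv+Palbo+Tram replicate 4 at 5.376. All but the K660N Palbo+FGF2 library were the lowest of their group. In 3 of the 8, the first 2 above and the FGF3 control library, MT-RNR2 took under 5% of counts.

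The interaction tests found members whose response differed from that in the control lines. For FGF2 on Fulv, DDX21 was at 0.66, RRS1 at 0.66 and GRWD1 at 0.52 in the FGFR1 line, and RRP12 at 0.73, DDX21 at 0.52 and RRS1 at 0.51 in the FGFR2 lines. For FIIN-3 on Fulv+FGF2, NOC2L was at -0.95 and RRS1 at -0.75 in the FGFR1 line. In the FGFR2 lines RRP12 was at -0.96, RRS1 at -0.84, NOC2L at -0.78, DDX21 at -0.76, LTV1 at -0.65, WDR43 at -0.63, NOP2 at -0.62, PNO1 at -0.58, GRWD1 at -0.52, PES1 at -0.52, BYSL at -0.49, DDX10 at -0.48, IMP4 at -0.46 and NIP7 at -0.35.

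For Tram on Fulv+FGF2, the FGFR1 line had BOP1 at -0.77, PNO1 at -0.74, LTV1 at -0.73, RRS1 at -0.71, BYSL at -0.67, NOP16 at -0.60, EMG1 at -0.58, DDX21 at -0.56, POLR1E at -0.55 and GRWD1 at -0.53. The FGFR2 lines had PNO1 at -0.82, DDX21 at -0.76, LTV1 at -0.74, BOP1 at -0.60, RRS1 at -0.52, NIP7 at -0.49, BYSL at -0.46, POLR1E at -0.42, GRWD1 at -0.41 and IMP4 at -0.40. All are differences of log2 fold changes with adjusted p below 0.05 in edgeR, and the tests of both classes use the same control libraries.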

How the results depend on the processing

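Counts of members called are given as main, then alternative. DESeq2 size factors moved none of the 49 counts by over 1.5 times. The Wald test of DESeq2 moved 9: FGF2 in the control lines (0, 2), Fulv in the control (4, 8) and FGFR2 lines (11, 18), Tram in the FGFR1 line (1, 2), FIIN-3 on Palbo+FGF2 in the FGFR1 line (4, 8), Palbo in the FGF3 line (1, 3), Tram against FIIN-3 in the FGF3 line (5, 10), and the FGFR1 interactions of FGF2 (3, 6) and FIIN-3 (2, 4). The term for title-number ranges moved 16: FGF2 in the control (0, 1) and FGFR2 lines (30, 11), Fulv in the control (4, 7) and FGFR2 lines (11, 20), FGF2 on Fulv in the control (3, 1) and FGFR2 lines (29, 19), Palbo on Fulv+FGF2 in the FGFR1 line (4, 7), FIIN-3 (5, 14), Tram (0, 3) and Palbo (1, 0) in the FGF3 line, FGFR2 lines at DMSO (2, 6), and the interactions of FGF2 (FGFR1 3, 9; FGFR2 3, 7), FIIN-3 (FGFR1 2, 7) and Tram (FGFR1 10, 17; FGFR2 10, 16). Without the filter 13 moved: FGF2 in the control lines (0, 3), Fulv in the FGFR1 (0, 5) and FGFR2 lines (11, 3), Tram in the FGFR1 (1, 3) and FGF3 lines (0, 1), Palbo+FGF2 in the control lines (0, 4), FIIN-3 on Palbo+FGF2 in the FGFR1 line (4, 7) and on FGF2 in the control lines (8, 4), Palbo in the FGF3 line (1, 0), FGFR2 (2, 1) and FGF3 lines (8, 5) at DMSO, and the interactions of FGF2 (FGFR2 3, 1) and Tram (FGFR1 10, 6). Without the libraries that stand apart 7 moved: FGF2 in the control (0, 1) and FGFR2 lines (30, 19), Fulv in the control lines (4, 8), Palbo in the FGF3 line (1, 6), FGFR2 lines at DMSO (2, 7), and the FGFR2 interactions of FGF2 (3, 6) and Tram (10, 16). The cause was not tested. Leaving out single libraries gave 8 to 23 calls for FGF2 in the FGFR1 line, 0 to 0 for Fulv in the FGFR1 and FGF3 lines, 2 to 7 for Palbo in the FGFR1 line, 4 to 6 for FIIN-3, 0 to 2 for Tram and 1 to 5 for Palbo on Fulv in the FGF3 line, 0 to 1 for the FGFR1 and 4 to 10 for the FGF3 line at DMSO, and 2 to 13 for Tram against FIIN-3 in the FGF3 line. The median over members in place of the mean widened the span of group means from 0.673 to 0.75. With FGF2 in the FGFR2 lines, NOP16, DDX18 and NPM1 reversed to 0.19, 0.25 and 0.051 with the range term and 0.14, 0.23 and 0.011 without the libraries that stand apart, and POLR1B to -0.073 with the range term. With the range term NOP10 reversed to 0.10 with FGF2 on Fulv and to -0.029 with FIIN-3 in those lines. Of the single-gene values called in the comparisons, 1.49% lost their call under the Wald test, 0.298% under size factors, 18.2% with the range term, 18.2% without the filter, 10.9% without the libraries that stand apart and 21.2% over the fits that leave out one library. No paired analysis was possible because the replicate field reads 6 for every library. The title-number ranges are not labelled as pairs or batches and entered only as the term above. Treatments were not spread evenly over them. In the GFP line, for example, libraries at DMSO and with FGF2 shared only some ranges, so treatment and range are partly mixed there. The shallow FGF3 DMSO libraries limit what that line can show.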
